A study of Mus musculus with 6 samples.

Results

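The genes described here make and break down cyclic AMP and cyclic GMP, or carry their signal to a protein kinase. They are the 52 genes, of 23748 rows measured, whose symbol names a cyclic nucleotide phosphodiesterase of families 1 to 11, an adenylyl cyclase, a guanylyl cyclase, a natriuretic peptide receptor, a subunit of the cyclic AMP kinase or a cyclic GMP kinase. The symbol rule uses no measured value, but the theme was chosen on the difference between the genotypes compared here, with the large changes of Pde9a and others already known. The differences of these genes between genotypes are therefore given as a description, with errors but no p-value, and the counts of genes past a threshold are set beside the same count over all rows.

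Cells were mouse embryonic fibroblasts taken at E14.5, in 3 wild type samples and 3 samples of genotype FOG-2 Rb-. FOG-2 Rb- is a knock-in form of Zfpm2, a co-factor of GATA transcription factors, whose product cannot bind the retinoblastoma protein according to the title of the study. All cells were harvested while proliferating, before any differentiation, from medium with donor bovine serum, and no other treatment is given. Every wild type title carries the number 18 and every FOG-2 Rb- title the number 27, so genotype cannot be told apart from what that number stands for, and whether the 3 samples of a genotype are separate embryos or cultures is not stated. If they are not, errors and p-values measure technical spread only.

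Cyclic AMP is made by adenylyl cyclases, most of them membrane enzymes that receptors switch on or off through G proteins, and it activates protein kinase A by releasing its catalytic subunits from its regulatory ones. Cyclic GMP is made by a soluble cyclase that senses nitric oxide and by membrane receptors for natriuretic peptides, and it activates the kinases encoded by Prkg1 and Prkg2. Phosphodiesterases end both signals, and their families differ in which nucleotide they hydrolyse and in what regulates them. In fat cells and their precursors, cyclic AMP drives lipolysis and thermogenesis, and insulin opposes it through the phosphodiesterase encoded by Pde3b.

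All values are log2 expression as the authors deposited it, and where single arrays are given they stand in the order of replicates 1 to 3. Arrays correlated at 0.997 to 0.998 within a genotype and at 0.990 to 0.991 between genotypes. All 10 fibroblast markers lay above 5.07, the 95th percentile of the mean values of 1088 odorant receptor genes. Fibroblasts are not known to use those receptor genes. Lying above 5.07 does not identify a cell type, as all 8 smooth muscle and 7 of 8 mesothelial markers did so in at least 1 genotype. A gene with both genotype means under that value is called dim here, and its changes are understated by an array. Of the 52 genes, 16 were dim, among them the photoreceptor phosphodiesterases Pde6a, Pde6b and Pde6c, the retinal and olfactory cyclases Gucy2d, Gucy2e and Gucy2f, and Npr1.

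Between the genotypes, 20 of the 52 genes passed an adjusted p of 0.05 in limma's test across all rows, 11 of them higher and 9 lower in FOG-2 Rb- cells. In bulk samples, fewer cells of a type and less RNA per cell cannot be told apart. Over all rows the shares were 18% in either direction, 9.44% higher and 8.59% lower. Dim rows seldom pass, and of the 36 genes that were not dim 18 passed (50%), against 28.2% of all rows not dim. In 28 of the 52 genes the arrays of one genotype all lay above those of the other, against 35.6% of all rows. The median difference on the log2 scale was -0.02 in the 52 genes and -0.02 in all rows, where array normalization holds it near 0. The median size of the change, whatever its sign, was 0.14 and 0.10. Because these genes were chosen on this contrast, the shares describe them and are no evidence that the family stands out. In each of the 20 genes the genotypes did not overlap. Of these 20, 12 differed by less than 1.5-fold and 4 by more than 2-fold, namely Pde5a, Pde9a, Pde1b and Adcy1.

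**Figure D1:**
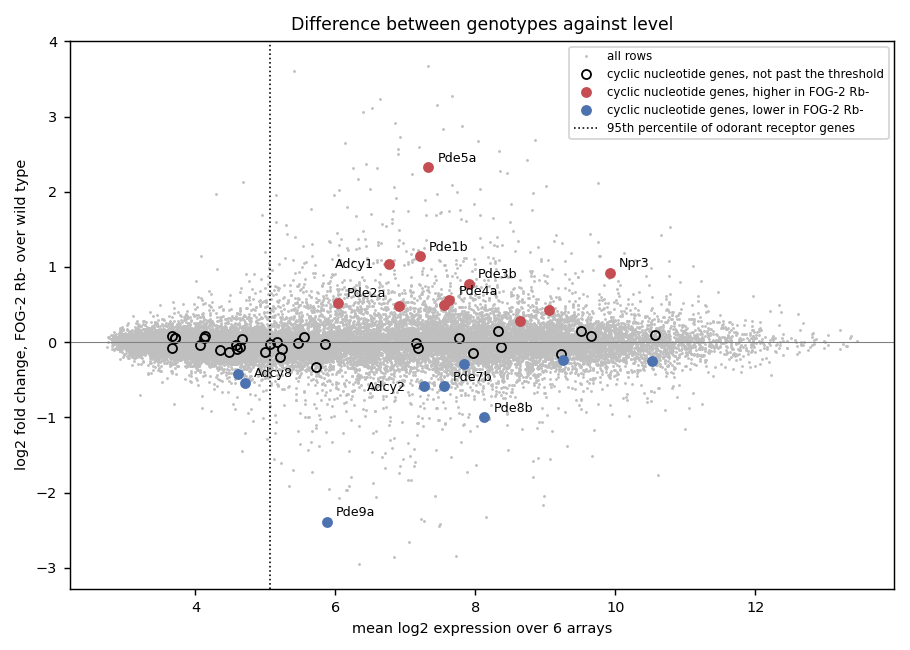
Log2 fold change of FOG-2 Rb- over wild type (vertical axis) against mean log2 expression over 6 arrays (horizontal axis) for 23748 rows in grey and the 52 cyclic nucleotide genes as circles, with those past the threshold filled. Names mark genes with a change of 0.5 or more, and the dotted line is the odorant receptor percentile of 5.07. Pde5a at 2.33 and Pde9a at -2.39 lie farthest from 0, and genes left of the dotted line other than Adcy8 and Pde8a lie close to 0.

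The phosphodiesterases held the largest changes, and they went both ways. Of 22 measured, 6 were higher, 4 were lower and 12 did not pass the threshold (45.5% past it, against 18% of all rows). Of the 17 not dim, 52.9% passed, against 28.2% of all rows not dim. They are grouped by substrate here and below. The grouping was made after the values were seen, so its counts describe these genes and are no evidence of a pattern by substrate. Each count is to be read beside the 9.44% higher and 8.59% lower of all rows. The enzymes that hydrolyse cyclic GMP alone were split. Pde5a, the target of sildenafil and an enzyme of smooth muscle and lung, measured 5.85, 6.32 and 6.31 in wild type and 8.54, 8.48 and 8.45 in FOG-2 Rb-. Every FOG-2 Rb- array was thus above every wild type array, by more than the spread within either genotype. The wild type mean was 6.16 ± 0.27 and the FOG-2 Rb- mean 8.49 ± 0.05 (SD, n = 3 each). They were 5.03-fold apart (log2 difference 2.33, SE 0.13). Pde9a, which has a high affinity for cyclic GMP, went the other way. It measured 6.80, 7.06 and 7.35 in wild type and 4.67, 4.91 and 4.48 in FOG-2 Rb-. Its mean was 7.07 ± 0.27 against 4.68 ± 0.22 (SD, n = 3 each), lower by 5.23-fold (log2 fold change -2.39, SE 0.16). The FOG-2 Rb- mean of Pde9a lay under the odorant receptor percentile, so this fold may be understated. The other cyclic GMP enzymes, Pde6a, Pde6b and Pde6c, were dim.

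**Figure D2:**
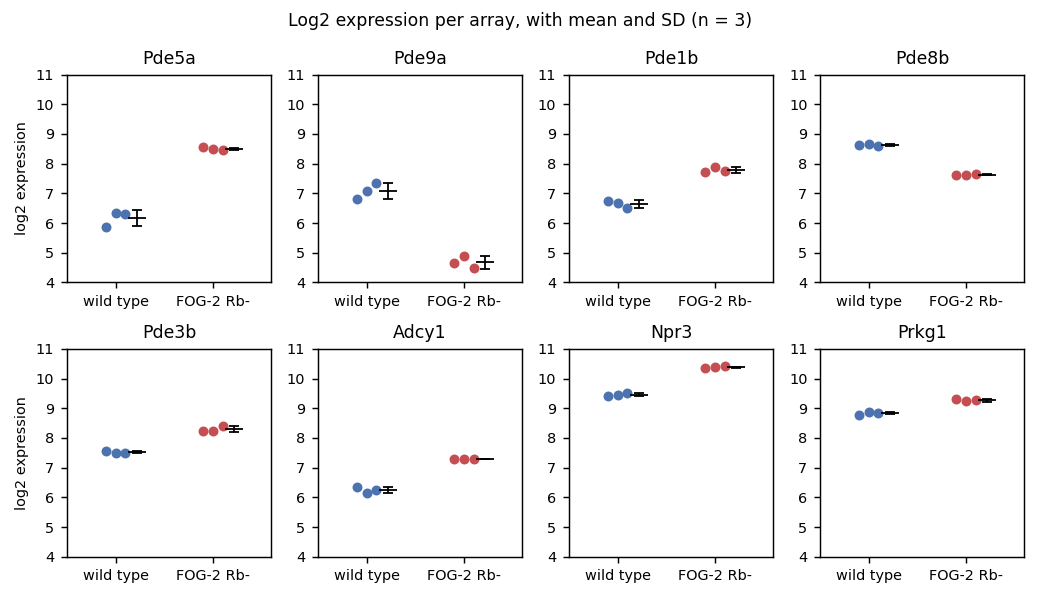
Log2 expression (vertical axis) of 8 genes in each of the 3 wild type (blue) and 3 FOG-2 Rb- (red) arrays, with a black bar for the mean and whiskers for the SD. The genotypes do not overlap in any of the 8 panels, Pde9a and Pde8b being lower and the other 6 higher in FOG-2 Rb-, and in Pde5a wild type replicate 1 (5.85) lies below the other wild type arrays.

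Among the 8 enzymes that hydrolyse both nucleotides, 4 were higher and 0 were lower. Pde1b, one of the calcium and calmodulin stimulated enzymes, measured 6.75, 6.68 and 6.5 in wild type and 7.71, 7.89 and 7.74 in FOG-2 Rb-, with no overlap. That is 2.21-fold (log2 fold change 1.14, SE 0.08). Its relatives Pde1a and Pde1c differed by -0.08 (SE 0.07) and -0.03 (SE 0.04) with overlapping arrays. Pde3b, through which insulin lowers cyclic AMP in fat cells, measured 7.55, 7.5 and 7.49 in wild type and 8.24, 8.24 and 8.40 in FOG-2 Rb-, or 1.72-fold (log2 0.78, SE 0.06). Its relative Pde3a, the form of heart and platelets, measured 7.27, 7.30 and 7.35 against 7.76, 7.85 and 7.80, or 1.41-fold. Both enzymes that cyclic GMP inhibits were thus higher by more than the spread between arrays. Pde2a, which cyclic GMP stimulates, measured 5.83, 5.86 and 5.62 against 6.28, 6.28 and 6.33, or 1.44-fold. Pde10a differed by -0.02 (SE 0.05), and Pde11a was dim.

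Among the 8 enzymes specific for cyclic AMP, 1 was higher and 3 were lower. Pde4a, of the rolipram-sensitive family, measured 7.34, 7.28 and 7.43 in wild type and 7.91, 7.94 and 7.88 in FOG-2 Rb-, or 1.47-fold higher (log2 0.56, SE 0.05). The other family members Pde4b, Pde4c and Pde4d differed by -0.09, -0.02 and -0.01, with overlapping arrays. Pde8b, a high-affinity enzyme insensitive to the general inhibitor IBMX, measured 8.63, 8.65 and 8.60 against 7.62, 7.63 and 7.64. The arrays of each genotype lay within 0.05 of each other, and the means were 1.99-fold apart (log2 fold change -0.99, SE 0.04). Its relative Pde8a measured 4.80, 4.83 and 4.84 against 4.47, 4.39 and 4.33, in the same direction but dim in both genotypes. Pde7b measured 7.75, 7.89 and 7.90 against 7.19, 7.23 and 7.36, lower by 1.5-fold. Pde7a differed by -0.14 (SE 0.05), its arrays not overlapping but its call not past the threshold. Pde6d, which matches the symbol rule but encodes a chaperone of prenylated proteins and not a phosphodiesterase, differed by -0.07 (SE 0.06).

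Promoter sequence is shown for the enzymes with the largest change in each direction, as far as the table holds them, with Pde8a beside its relative Pde8b. It covers the 250 bases before an annotated start in RefSeq (build GRCm38.p6), and capitals mark 2 motifs searched on both strands. These were the GATA motif, the letters GATA with A or T before them and A or G after them, and TGACG, the core of the cyclic AMP response element. The full element, TGACGTCA, contains the core and was searched too. Pde5a has 1 annotated start (chr3:122728908-122729157, plus strand), and none of these motifs lies in its window. Pde1b has 3 starts, of which the second (chr15:103506876-103507125, plus strand) holds 1 GATA motif, on the opposite strand, beginning at position -247 from the start. Pde8b has 5 starts, and the window of the first (chr13:95250337-95250586, minus strand) and the other 4 hold none of the motifs. Pde8a has 1 start (chr7:81213015-81213264, plus strand) and 1 core, at position -84.
Pde5a: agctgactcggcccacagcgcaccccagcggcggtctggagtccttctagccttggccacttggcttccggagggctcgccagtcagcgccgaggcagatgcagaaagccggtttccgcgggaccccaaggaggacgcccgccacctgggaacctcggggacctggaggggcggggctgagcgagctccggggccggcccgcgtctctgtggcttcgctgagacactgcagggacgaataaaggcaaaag
Pde1b: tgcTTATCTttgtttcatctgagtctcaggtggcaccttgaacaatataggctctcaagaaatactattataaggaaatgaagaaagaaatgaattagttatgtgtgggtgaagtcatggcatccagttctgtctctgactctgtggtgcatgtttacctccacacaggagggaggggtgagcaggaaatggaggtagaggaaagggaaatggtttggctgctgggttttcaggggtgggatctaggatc
Pde8b: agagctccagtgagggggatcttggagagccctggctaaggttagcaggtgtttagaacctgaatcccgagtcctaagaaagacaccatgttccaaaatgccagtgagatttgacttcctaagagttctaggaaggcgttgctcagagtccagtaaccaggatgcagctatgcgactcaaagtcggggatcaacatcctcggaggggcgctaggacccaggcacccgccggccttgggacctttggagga
Pde8a: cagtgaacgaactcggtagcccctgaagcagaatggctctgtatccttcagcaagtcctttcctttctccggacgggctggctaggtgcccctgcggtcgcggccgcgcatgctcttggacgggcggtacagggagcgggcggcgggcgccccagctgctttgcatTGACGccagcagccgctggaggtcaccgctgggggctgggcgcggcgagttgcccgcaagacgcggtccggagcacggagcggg

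Of the 52 genes, 42 matched the promoter table, with 82 windows. A GATA motif lay in 22% of these windows and in 26.5% of all 32851 windows, and a core in 19.5% and 17.8%. The full response element lay in 1 of the 82 windows (1.22%), against 1.55% of all. Counted by gene, with a motif in at least 1 window, the shares were 38.1% of the 42 genes against 29.7% of all 27025 genes for GATA, 33.3% against 19.8% for the core and 2.38% against 1.77% for the full element. The 42 genes have more windows per gene, which raises a share counted by gene. Among the 14 matched genes past the threshold, 5 had a GATA motif, namely Pde1b, Pde2a, Pde4a, Prkg1 and Prkaca, and 5 had a core, namely Pde4a, Pde8a, Npr3, Prkar1b and Prkaca. A match describes letters only and is no evidence of binding.

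Adenylyl cyclases also went both ways, with 2 higher, 2 lower and 6 not past the threshold of 10 measured (40% past it, against 18% of all rows). Of the 7 not dim, 42.9% passed, against 28.2% of all rows not dim. Adcy1, a calcium-stimulated cyclase best known from neurons, measured 6.35, 6.14 and 6.24 in wild type and 7.28, 7.28 and 7.29 in FOG-2 Rb-. The genotypes were a full log2 unit apart with no overlap, or 2.06-fold (log2 fold change 1.04, SE 0.06). Adcy6, which calcium inhibits, measured 8.49, 8.48 and 8.52 against 8.81, 8.79 and 8.74, a smaller step of 1.22-fold. Adcy2, which G protein beta-gamma subunits stimulate, measured 7.47, 7.51 and 7.70 against 7.06, 6.86 and 7.01, lower by 1.5-fold (log2 fold change -0.58, SE 0.08). Its relatives Adcy4 and Adcy7 differed by -0.19 (SE 0.07) and -0.32 (SE 0.11) and did not pass the threshold. Adcy8, another cyclase that calcium stimulates through calmodulin, went against Adcy1. It measured 5.09, 4.99 and 4.83 against 4.49, 4.29 and 4.52, though both means were dim. Adcy3 and Adcy9 differed by 0.15 and 0.07 and did not pass. Adcy5 and the bicarbonate-sensing Adcy10 were dim.

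The enzymes that make cyclic GMP did not pass the threshold, and most were dim. The soluble cyclase works as a pair of an alpha and a beta subunit. Of its 4 genes, only the alpha subunit gene Gucy1a2 lay above the odorant receptor percentile, at 7.74 ± 0.04 and 7.80 ± 0.05 (SD, n = 3 each). The beta subunit gene Gucy1b1 was at 4.63 ± 0.13 and 4.54 ± 0.04 (SD, n = 3 each), and Gucy1a1 and Gucy1b2 were dim as well. Of the 5 genes of the Gucy2 membrane cyclases, Gucy2c, the guanylin receptor of the intestine, was at 5.17 in each genotype and the other 4 were dim.

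Among the natriuretic peptide receptors the largest change was that of Npr3, which binds the peptides and clears them but has no cyclase domain. Npr3 measured 9.42, 9.45 and 9.51 in wild type and 10.36, 10.38 and 10.41 in FOG-2 Rb-. The means, 9.46 ± 0.05 and 10.38 ± 0.02 (SD, n = 3 each), were 1.90-fold apart (log2 fold change 0.92, SE 0.05). Npr2, the cyclase receptor of C-type natriuretic peptide, measured 9.36, 9.28 and 9.28 against 9.17, 9.17 and 9.11. Its arrays did not overlap, but the difference of -0.15 (SE 0.05) did not pass the threshold. With a prior that follows the level, and with each filter on low values, Npr2 was called lower. Npr1, the cyclase receptor of the atrial peptide, was dim.

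Subunits of the cyclic AMP kinase changed by less than 0.5 each. All 6 lay above the odorant receptor percentile. Of them, 1 was higher and 2 were lower (50% past the threshold, against 28.2% of all rows not dim). In all 6 the genotypes did not overlap, as in 35.6% of all rows. The median size of their change was 0.20, against 0.13 in all rows not dim. Prkar1b, a regulatory subunit typical of brain, measured 6.60, 6.75 and 6.65 in wild type and 7.07, 7.10 and 7.27 in FOG-2 Rb-, or 1.39-fold (log2 0.48, SE 0.07). Prkaca, the main catalytic subunit, measured 10.61, 10.63 and 10.70 against 10.36, 10.39 and 10.43, lower by 1.19-fold. Prkar2a measured 9.34, 9.35 and 9.44 against 9.07, 9.16 and 9.17, lower by 1.18-fold, and this call was lost on leaving out any 1 array other than wild type replicate 1. The remaining subunits Prkacb, Prkar1a and Prkar2b differed by 0.08, 0.10 and 0.15 and did not pass.

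The cyclic GMP kinases moved in opposite directions. Prkg1, the kinase of smooth muscle, measured 8.79, 8.88 and 8.85 in wild type and 9.31, 9.23 and 9.26 in FOG-2 Rb-, or 1.35-fold higher (log2 0.43, SE 0.05). Prkg2, the membrane-bound kinase known from intestine and growth plate cartilage, measured 7.96, 8 and 7.98 against 7.63, 7.70 and 7.74, lower by 1.22-fold (log2 fold change -0.29, SE 0.05). Neither gene overlapped between genotypes.

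**Figure D3:**
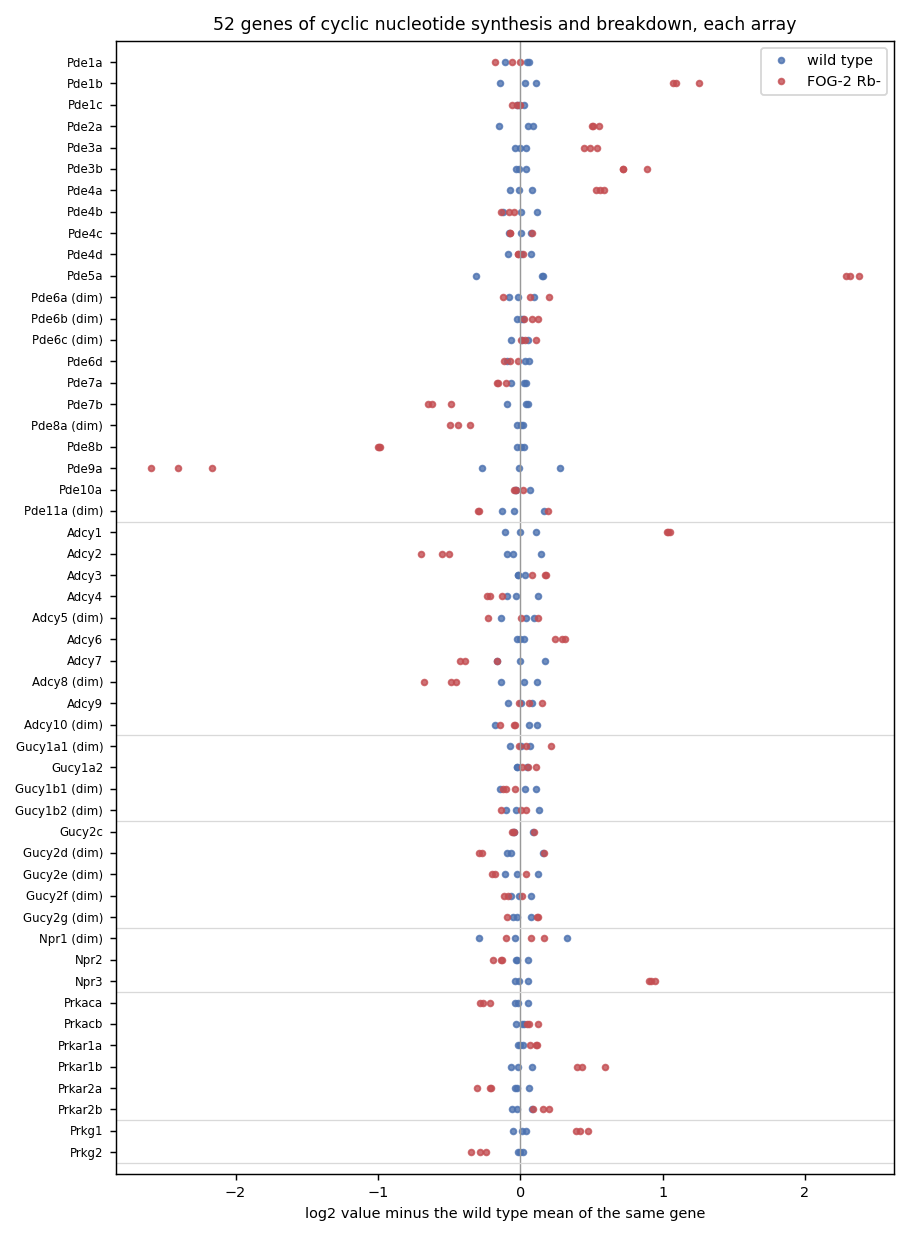
Each array's log2 value minus the wild type mean of the same gene (horizontal axis) for all 52 genes, ordered by role, with wild type in blue, FOG-2 Rb- in red and dim genes marked. Points of Pde5a, Pde1b, Adcy1 and Npr3 lie far right and those of Pde9a and Pde8b far left, while the genes of the guanylyl cyclases lie around 0.

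The 32 genes that did not pass had log2 fold changes from -0.32 to 0.15, and 14 of them were dim. In 8 of the 32 the genotypes did not overlap, namely Adcy3, Adcy4, Prkacb, Prkar1a, Prkar2b, Npr2, Pde6b and Pde7a. Of all rows, past the threshold or not, 35.6% did not overlap. The share among all rows not past it was not counted, so the 8 are listed as a description only. A miss of the threshold does not show that a gene was at the same level in the genotypes.

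Other genes of the pathway were taken from 13 lists with 143 genes, none of them among the 52, all of which matched a row. Of these, 23 rose and 12 fell, 24.5% of the list against 18% of all rows. Of the 101 that were not dim, 33.7% passed, against 28.2% of all rows not dim. The share per list ran from 0% to 66.7%, and each count below is to be read beside these shares of all rows. The median log2 difference of the 143 genes was -0.01, and the adjusted p-values that follow are limma's over all 23748 rows. The lists were chosen with earlier results of these data known, and most genes named below were picked for their large change. The shares and p-values therefore describe these genes and are no evidence that the lists stand out.

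The largest changes in these lists were those of an anchoring protein that rose and a G protein regulator that fell. Akap5, which holds protein kinase A and adenylyl cyclases at the membrane, measured 6.73, 6.58 and 6.59 in wild type and 8.35, 8.50 and 8.21 in FOG-2 Rb-. All FOG-2 Rb- arrays were above all wild type arrays, and the rise was 3.30-fold (log2 1.72, SE 0.08, adjusted p = 4.04e-05). Of 16 A-kinase anchoring proteins, 6 rose and 1 fell; Ezr rose 1.93-fold, Akap12 1.44-fold and Akap2 1.26-fold. Rgs2, a regulator of G proteins and a target of the cyclic GMP kinase, measured 7.89, 7.99 and 7.98 against 6.11, 6.01 and 6.25. It fell 3.55-fold (log2 difference -1.83, SE 0.07, adjusted p = 1.61e-05). The other called partners of the cyclic GMP kinase were Irag1 and Ppp1r12a, which rose 1.24-fold and 1.21-fold, and Vasp, which rose 1.25-fold (adjusted p = 0.0409). The call of Vasp was lost on leaving out any 1 array other than wild type replicate 3 (adjusted p = 0.0661 to 0.118). It was lost too after quantile normalization anew (adjusted p = 0.0539).

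Receptors and G proteins upstream of the cyclases mostly did not pass the threshold. Of 28 receptors that couple to the stimulatory G protein, or their partners, 3 rose and 0 fell (10.7%, against 18% of all rows). Calcrl, the calcitonin-like receptor of adrenomedullin and CGRP, rose 1.59-fold (adjusted p = 0.000482), the prostaglandin E receptor gene Ptger4 1.41-fold and the PACAP receptor gene Adcyap1r1 1.30-fold. Of 14 receptors that couple to inhibitory G proteins, 1 rose and 2 fell (21.4%). Htr1b, a serotonin receptor, measured 8.37, 8.42 and 8.47 in wild type and 6.91, 6.91 and 6.84 in FOG-2 Rb-, a fall of 2.88-fold (log2 difference -1.53, SE 0.05, adjusted p = 7.78e-06). The sphingosine phosphate receptor gene S1pr1 fell 1.47-fold, and the neuropeptide Y receptor gene Npy1r rose 1.96-fold (adjusted p = 7.14e-05). Of 7 G protein alpha subunits, 0 rose and 2 fell (28.6%). Gnao1, an inhibitory-class subunit, measured 9.32, 9.21 and 9.20 against 8.13, 8.01 and 8.13 and fell 2.22-fold (adjusted p = 4.69e-05). Gnai3 fell 1.14-fold (adjusted p = 0.0268), a call lost on leaving out any 1 array (adjusted p = 0.0565 to 0.0964). It was lost too with the replicate block (0.0841) and with arrays centred on their median (0.0665). Gnas, the stimulatory subunit, singled out after its value was seen, differed by -0.08 (adjusted p = 0.356).

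Downstream of the kinase, 1 of 8 CREB factors and co-activators passed, Crebbp, which rose 1.26-fold. Creb1 itself, singled out after its value was seen, differed by -0.04 (adjusted p = 0.602). Of 15 textbook CREB target genes, 2 rose and 4 fell. The nuclear receptor genes Nr4a2 and Nr4a3 fell 1.95-fold and 1.6-fold, the EGF receptor ligand gene Areg fell 1.85-fold and the AP-1 gene Fosb rose 1.56-fold. Nr4a2 measured 8.39, 8.36 and 8.43 against 7.38, 7.5 and 7.42 (log2 difference -0.96, SE 0.05, adjusted p = 5.41e-05). The call of Nr4a3 was lost without limma's moderation of the variance (adjusted p = 0.0562). The list thus held genes changed in each direction.

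Among other effectors, 2 of 15 rose and 0 fell. They were Rapgef3, the exchange factor Epac1 that cyclic AMP activates without the kinase, at 1.34-fold, and the cyclic AMP binding Popeye gene Bves at 1.38-fold. The heat-stable kinase inhibitor gene Pkia rose 1.31-fold and its relative Pkig fell 1.29-fold. The call of Pkia was lost without wild type replicate 3 or any 1 FOG-2 Rb- array (adjusted p = 0.0664 to 0.103), and that of Pkig on leaving out replicate 1 or 2 of either genotype (0.0508 to 0.0637). A list of 8 accessory proteins held partners of the phosphodiesterases and, with Guca1a and Guca1b, activators of guanylyl cyclases. Of these, 2 rose: the anchoring protein gene Pde4dip by 1.44-fold and the beta-arrestin gene Arrb1 by 1.38-fold. Abcc5, an exporter of cyclic nucleotides, rose 1.58-fold (log2 0.66, SE 0.05, adjusted p = 0.000193). The ecto-nucleotidase gene Nt5e fell 1.36-fold but was dim, and its call was lost on leaving out replicate 2 of either genotype or FOG-2 Rb- replicate 1 (adjusted p = 0.055 to 0.0573). Of 8 genes of nitric oxide synthesis, only Ddah2, which breaks down an inhibitor of the synthases, passed, rising 1.41-fold (adjusted p = 0.0136, or 0.0513 without FOG-2 Rb- replicate 2). Without that moderation the calls of Pkia, Pkig, Nt5e, Ddah2 and Vasp were lost too (adjusted p = 0.0687 to 0.122). Of 8 genes of natriuretic and guanylin peptides and their processing, 0 passed in limma, and 4 had an unadjusted p under 0.05, as did 29.9% of all rows. The smallest p was that of Nppc, the C-type peptide, whose log2 difference was 0.22 (SE 0.07, adjusted p = 0.0865).

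**Figure D4:**
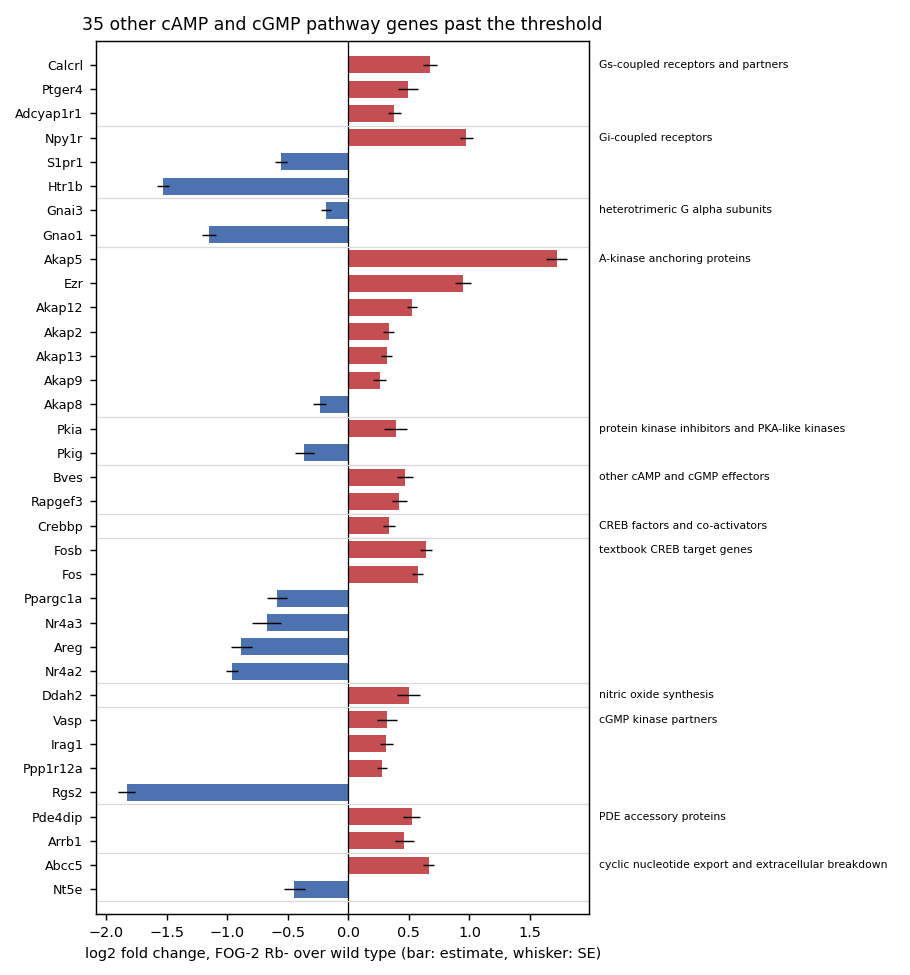
Log2 fold change of FOG-2 Rb- over wild type (horizontal axis, whiskers SE) for the 35 pathway genes past the threshold, grouped by list, with rises in red and falls in blue. Akap5 at 1.72 and Rgs2 at -1.83 are the longest bars.

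Markers of some other cell types moved with genotype in these bulk samples. Past the threshold were 87.5% of mesothelial, 75% of smooth muscle, 60% of fibroblast and 57.1% of pericyte markers. The shares were 33.3% of macrophage, 25% of neural and 12.5% of endothelial markers. Over all rows the share was 18%, and over all rows not dim 28.2%. Of 8 mesothelial markers, 6 were higher and 1 lower in FOG-2 Rb-, and their mean log2 level was 5.91 to 6.02 over the wild type arrays and 6.89 to 6.96 over the FOG-2 Rb- arrays, with Lrrn4 dim. Of 8 smooth muscle markers, which bear on Pde5a and Prkg1, 4 were higher and 2 lower, with mean levels of 8.62 to 8.67 and 8.65 to 8.70 and none dim. Of 7 pericyte markers, 2 were higher and 2 lower, with mean levels of 6.28 to 6.47 and 6.26 to 6.36 and Abcc9 and Higd1b dim. Of 8 endothelial markers only Kdr was higher, with mean levels of 4.80 to 4.90 and 5.04 to 5.12 and Tek, Tie1, Emcn and Cldn5 dim. Of 6 matched macrophage markers, Cd68 and Csf1r were higher, with mean levels of 4.92 to 4.95 and 5.04 to 5.07 and Ptprc, Adgre1, Aif1 and Fcgr1 dim. Of 8 neural markers, which bear on Adcy1 and Prkar1b, Map2 was higher and Snap25 lower, with mean levels of 5.47 to 5.58 and 5.42 to 5.53 and Tubb3, Sox2 and Sox10 dim. No epithelial, photoreceptor or skeletal muscle marker passed the threshold, although 3 of 6, 3 of 6 and 4 of 6 of them were not dim. The fibroblast markers themselves had mean levels of 11.28 to 11.33 and 10.98 to 11.02, with 2 higher and 4 lower of 10. The part of these shifts in the differences above was not tested.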

How the data were processed

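RNA of 3 wild type and 3 FOG-2 Rb- samples of mouse embryonic fibroblasts was measured on Affymetrix whole-transcript arrays, 1 array each. The deposited values are log2 expression, and RMA and Partek are named in the submitters' processing notes, without versions. Build and annotation: not given in the sources used here. Scanner files were not used. The authors' deposited table also holds a p-value, a fold ratio and a signed fold change score per row. Its log2 ratio differed from the difference of means computed here by at most 7.18e-06.

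Genotypes were compared with limma 3.58.1 (R 4.3.3), with lmFit and eBayes on the deposited log2 values and no covariate. P-values were adjusted by Benjamini-Hochberg over all 23748 rows, with a threshold of 0.05, and the step was tested on simulated data. Gene symbols came from the platform annotation, and 637 rows had none. Of the listed genes, 15 pathway genes and 2 markers were matched by their current symbol or a synonym in RefSeq instead, Areg and Irag1 among them. The 52 genes, the gene lists and the tests were chosen with earlier results of these data known, and the phosphodiesterases were grouped by substrate after their values were seen. Members past the threshold are described in full, and of each pathway list up to 4 called genes with the largest change are named, or the gene with the smallest p where none was called. Alternatives were leaving out each array, the replicate block, other priors, an ordinary ANOVA per row without moderation of the variance (which gave the p-values of the authors' deposited table), renormalization, centring, filters on low values and a threshold of 0.01. The precision is limited by the number of arrays.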

Additional observations from a re-analysis of the deposited data

How the results depend on the processing

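The number of rows past the threshold was 4281, and 2805 to 3446 when 1 array was left out, the lowest without FOG-2 Rb- replicate 3. It was 2215 at a threshold of 0.01. Of the 52 cyclic nucleotide genes, 11 were higher in each fit that left out 1 array and 8 to 9 were lower. Of the pathway genes, 19 to 25 were higher and 8 to 10 lower. With the replicate block the numbers were 3181 rows, 11 and 9 of the 52 genes, and 24 and 10 pathway genes. Deviations of same-numbered samples correlated at 0.031, 0.018 and 0.002, and those of differently numbered samples at -0.034 to 0.020. What the replicate numbers stand for is not stated, and these values cannot tell whether same-numbered samples shared a culture or day. With a prior that follows the level, the numbers were 5495 rows, 14 and 10 of the 52 genes, and 26 and 13 pathway genes. In the ordinary ANOVA they were 3553 rows, 12 and 9, and 21 and 9. Without rows under the odorant receptor percentile they were 5188 rows, 12 and 8, and 27 and 12. Among the 20 genes past the threshold, Prkar2a lost its call on leaving out any 1 array other than wild type replicate 1. At a threshold of 0.01, Prkaca and Prkar2a lost theirs. Of the genes not past it, Npr2 was called lower in 3 of 16 settings, Adcy3 and Prkar1a higher in 2 each and Prkar2b higher in 1. Another test, prior or filter leaves a fold change as it is. After quantile normalization anew, Pde8b moved by more than 1 SD, to -1.02. Low signal limits the 16 dim genes.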
